A study of Mus musculus with 18 samples.

Results

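The autophagy genes described here are 10 mouse genes that act at successive steps of autophagosome formation: Ulk1, Ulk2 and Atg13 (initiation), Becn1 (membrane lipid signalling), Atg9a, Atg2a and Atg2b (lipid supply), Map1lc3b and Gabarapl1 (ATG8 proteins) and Sqstm1 (cargo). Members were chosen by symbol from the polysome count table, and 10 of its 51467 genes carry these names. The set was proposed because Atg2a had among the largest gains in translation level in the knockout, so its own values in the high polysomes and monosomes are given as a description, with no test. The libraries came from mouse embryonic stem cells (ESCs) grown in serum with LIF and 2 kinase inhibitors (2i), either wild-type V6.5 cells or a Dgcr8 KO line. All cells were treated with cycloheximide at 100 µg/ml for 2 min before lysis. Each lysate was spread on a sucrose gradient by the number of ribosomes per message and collected as monosomes, low polysomes (2 to 4 ribosomes) and high polysomes (4 or more). There were 3 gradients per genotype and 18 libraries in all, read at the 3′ ends of messages. The Dgcr8 KO group is 1 cell line, so genotype and line cannot be told apart.

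Autophagy encloses cytoplasm in a double membrane and delivers it to the lysosome. The ULK kinase complex starts the process, the Beclin 1 complex marks the site with a phosphoinositide, and ATG2 proteins bridge membranes and move lipid into the growing sheet together with the scramblase ATG9. The ATG8 proteins (the LC3 and GABARAP groups) are then joined to the lipid phosphatidylethanolamine in that sheet, where receptors such as p62 (the product of Sqstm1) dock cargo.

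DGCR8 is the RNA-binding partner of DROSHA in the Microprocessor, which cuts primary microRNAs. Cells without it make no canonical microRNAs, including those of the miR-290 and miR-302 clusters. In the paper's reporter cells, naive ESCs were positive for miR-290 and negative for miR-302. The levels of these microRNAs were not measured here. Some of the microRNAs of these clusters that share a seed are shown, because the seed decides which messages they pair with. Their mature sequences (RefSeq, GRCm38.p6) read 5′ to 3′ as follows, with the seed, bases 2 to 8, in capitals.
miR-291a-3p: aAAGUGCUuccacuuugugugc
miR-294-3p: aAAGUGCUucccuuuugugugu
miR-295-3p: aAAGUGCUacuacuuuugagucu
miR-302b-3p: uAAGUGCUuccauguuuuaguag
miR-302d-3p: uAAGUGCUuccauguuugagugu

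Matches to this seed (AGCACTT or GCACTTA, searched on the sense strand of the annotated 3′ UTR, the 8-base AGCACTTA holding both) were found in 3 of the 10 autophagy genes, beside 19.4% of 11671 protein-coding genes tested. They lie in Ulk1, Atg9a and Becn1 and are shown because these are the only members with such a match. The 11671 genes had passed the low-value filter described below, which Atg9a had not. Of the members that passed it, only Ulk1 and Becn1 hold a match. The 8-base form was in none of the 10 autophagy genes and in 3.36% of the protein-coding genes. Each match is printed 5′ to 3′ on the strand of the message, with the matched bases in capitals.
Ulk1 (3′ UTR, chr5:110785675-110785698, minus strand, GRCm38): taagtcaccggAGCACTTtatgca
Atg9a (3′ UTR, chr1:75181209-75181232, minus strand, GRCm38): cttttaggacgAGCACTTgggagt
Becn1 (3′ UTR, chr11:101288483-101288506, minus strand, GRCm38): tctcaacttcctGCACTTAaaatt
The 3′ UTR of Atg2a, 498 nucleotides long, held none of these letters.

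The libraries held 1151649 to 4984833 counts, and the monosome libraries were the smallest in each genotype. Levels are given as CPM, counts per 1000000 counts of a library, and 3 counts, the level up to which a gene was taken as not detected, equalled 0.689 to 2.65 CPM. A total of 12851 genes passed the low-value filter of 3 CPM in at least 3 libraries, and 9 of the 10 autophagy genes were among them. Dgcr8 itself, the check of the genotype, was at 74.8 ± 5.75, 62.8 ± 9.65 and 27.7 ± 1.76 CPM (SD, n = 3) in the wild-type monosomes, low and high polysomes and at 50.2 ± 2.58, 46.6 ± 10.6 and 15.4 ± 7.17 CPM in the Dgcr8 KO. The log2 differences were −0.56, −0.45 and −1.01, of which only the last was called (adjusted p = 0.000276), and the low polysome libraries overlapped. Between 38 and 183 Dgcr8 reads were left in each library of the knockout. Reads near the 3′ end can lie outside a deleted part, so this level checks the labels only weakly. The summed level of 8 ESC markers was 2790 to 5050 CPM in wild-type and 2830 to 3660 CPM in the Dgcr8 KO libraries, and all 8 passed the filter. In the high polysomes it did not overlap, at 4590 to 5050 CPM in wild-type and 3150 to 3660 CPM in the knockout. The 8 markers differed there. Dppa5a (log2 difference −1.65) and Pou5f1 (−1.42) were called lower. Klf4 (−0.93), Zfp42 (−0.51) and Nanog (−0.25) were lower without a call, and Sox2 (0.05), Esrrb (0.11) and Tfcp2l1 (−0.07) hardly differed. The summed level of 6 primitive endoderm markers was at most 10.8 CPM in wild-type and 8.91 CPM in knockout libraries, with 2 of 6 past the filter. That of 6 fibroblast markers was at most 12.7 and 21.5 CPM, with 2 of 6 past it. The value of 21.5 was in the knockout low polysomes, while the knockout monosomes (1.94 to 7.83 CPM) and high polysomes (2.76 to 5.29 CPM) lay below wild-type (9.73 to 12.7 and 7.01 to 12.1 CPM). The part of these cells in the results was not tested, and in bulk libraries fewer cells of a type and less RNA per cell cannot be told apart.

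The question was how the load of ribosomes on these messages differs between wild-type and Dgcr8 KO cells. The translation level of a gene is its high polysome level over its monosome level, and its change is the Dgcr8 KO ratio against the wild-type ratio on the log2 scale. The autophagy genes did not move together. Sqstm1 rose in translation level and the ATG8 genes Map1lc3b and Gabarapl1 fell, while Becn1 had nearly the same ratio in both genotypes. A gene was called where limma's adjusted p was below 0.05 and the change exceeded 2-fold. By this rule 3 of the 8 members tested were called, 1 higher and 2 lower, beside 15.1% of all genes (6.29% higher and 8.81% lower). With adjusted p alone 5 of 8 passed, beside 28.2% of all genes. The median change of the 8 was −0.39, and that of all genes 0.01.

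**Figure D1:**
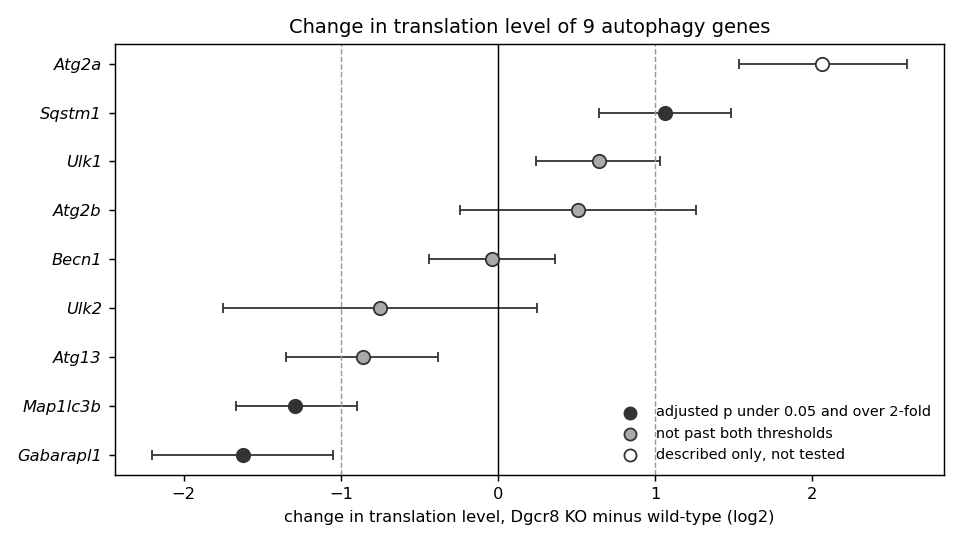
Change in translation level (x axis, log2, Dgcr8 KO minus wild-type) of the 9 autophagy genes that passed the filter (y axis), with bars for the 95% confidence interval from limma and dashed lines at a 2-fold change. Values run from −1.62 for Gabarapl1 to 2.06 for Atg2a. Atg2a chose the set and is drawn open, without a test, while Sqstm1, Map1lc3b and Gabarapl1 are the 3 called genes.

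Atg2a (ENSMUSG00000024773, chr19:6241668-6262335, plus strand) encodes a lipid transfer protein that bridges the endoplasmic reticulum and the growing membrane. In the monosomes its level was 50.9, 36.1 and 46.0 CPM in the wild-type gradients and 51.1, 55.9 and 56.8 CPM in the Dgcr8 KO gradients. In the high polysomes it was 28.9, 20.9 and 29.6 CPM against 131, 114 and 172 CPM. The monosome values of the genotypes are separated only by a narrow gap, whereas the lowest knockout value in the high polysomes is far above the highest wild-type value. In wild-type cells every gradient held less Atg2a in the high polysomes than in the monosomes, with log2 ratios of −0.80, −0.77 and −0.62. In the knockout every gradient held more, with ratios of 1.34, 1.02 and 1.59. The fitted change was 2.06 (SE 0.26), a 4.18-fold difference, which ranked 124th of 12851 genes. These are the values that chose the gene, and nothing is read from their size.

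The low polysomes took no part in that choice, so there Atg2a could be tested. Its level was 64.9, 60.5 and 74.4 CPM in wild-type and 87.3, 117 and 96.7 CPM in the Dgcr8 KO cells. The lowest knockout library lay above the highest wild-type library. The difference was 0.58 on the log2 scale (SE 0.15, adjusted p = 0.00098 in limma), a 1.5-fold higher level that stayed below the 2-fold threshold. From low to high polysomes the wild-type log2 ratio was −1.15, −1.5 and −1.31, and the knockout ratio was 0.58, −0.03 and 0.83. These ratios use the high polysome values that chose the gene and are given as a description.

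Atg2b (ENSMUSG00000041341, chr12:105616136-105685211, minus strand), the paralog of Atg2a with the same membrane bridging role, was higher in the knockout in each fraction, but its ratio was not called. Its high polysome level was 10.9, 19.5 and 18.2 CPM in wild-type and 52.6, 32.6 and 36.5 CPM in Dgcr8 KO cells. No library of one genotype reached the range of the other. The log2 difference was 1.30 (SE 0.21, adjusted p = 1.2e-06), a 2.46-fold rise. In the low polysomes the difference was 0.70 (SE 0.19, adjusted p = 0.00183) and in the monosomes 0.79 (SE 0.31, adjusted p = 0.0399), both below the fold threshold. Because the monosome level was also higher, the change in translation level was 0.51 (SE 0.37, adjusted p = 0.332), with a 95% interval from −0.24 to 1.26. The wild-type gradients disagreed on that ratio, at −0.69, 1.15 and 0.43. Atg2b rested on 13 to 27 reads per library in the wild-type monosomes. Leaving out 1 gradient at a time moved its change from −0.01 to 0.95, and without WT replicate 1 the monosome difference became 1.08 (adjusted p = 0.0243) and was called.

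Atg9a (ENSMUSG00000033124, chr1:75180860-75192196, minus strand), the membrane scramblase, could not be measured. It had 13 counts over all 18 libraries, 0 to 4 in each. In the exon coordinates of the count table it shares 1832 of its 4383 exonic bases, the last 300 at its 3′ end among them, with the gene model Gm29253 on the same strand, which had 0 counts. Reads that fall in 2 genes are given to neither by default in featureCounts, so the low count says nothing about the level of the message.

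Sqstm1 (ENSMUSG00000015837, chr11:50199366-50210827, minus strand) encodes p62, the receptor that links ubiquitin-tagged cargo to ATG8 proteins. Its monosome level was 65.0, 62.6 and 65.4 CPM in wild-type and 62.3, 57.1 and 64.2 CPM in knockout cells. The genotypes overlap there, and the log2 difference was −0.08 (SE 0.16, adjusted p = 0.75). In the low polysomes the values were 36, 40.2 and 42.7 CPM against 82.4, 60.6 and 83.5 CPM. In the high polysomes they were 108, 96.6 and 118 CPM against 194, 205 and 238 CPM. Both polysome fractions were higher in every knockout library than in any wild-type library. The log2 differences were 0.92 (SE 0.15, adjusted p = 1.23e-06) and 0.98 (SE 0.12, adjusted p = 9.14e-09), just under the 2-fold threshold. The change in translation level was 1.06 (SE 0.21, adjusted p = 0.000118), a 2.08-fold rise. This call sits at the threshold. It was lost without WT replicate 2 (0.97, adjusted p = 0.00352) and with total counts in place of TMM scaling (0.73, adjusted p = 0.00451), a scaling that moved the median change of all genes by −0.328.

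Map1lc3b (ENSMUSG00000031812, chr8:121590361-121598760, plus strand) encodes LC3B, an ATG8 protein of the autophagosome membrane. Its level fell further below wild-type as ribosome number rose. Wild-type and knockout monosomes held 141, 119 and 134 CPM against 92.8, 93.6 and 103 CPM, a log2 difference of −0.44 (SE 0.13, adjusted p = 0.00599). Low polysomes held 165, 157 and 182 CPM against 73.2, 74.3 and 63.8 CPM. High polysomes held 90.1, 95.1 and 97.1 CPM against 26.1, 28.6 and 29.9 CPM. The genotypes did not overlap in any fraction. The log2 differences were −1.25 in the low polysomes (SE 0.12, adjusted p = 1.01e-11) and −1.73 in the high polysomes (SE 0.14, adjusted p = 1.09e-13), the last a 3.32-fold lower level. Its translation level fell by 1.29 on the log2 scale (SE 0.19, adjusted p = 1.86e-06). Leaving out any 1 gradient kept the change between −1.37 and −1.24.

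Gabarapl1 (ENSMUSG00000030161, chr6:129533160-129542346, plus strand), an ATG8 gene of the GABARAP group, was called at the heavy end of the gradient and in neither lighter fraction. In the monosomes its means were 26.2 ± 3.66 CPM in wild-type and 26.1 ± 3.76 CPM in knockout cells (SD, n = 3), with a log2 difference of −0.04 (95% interval −0.47 to 0.40). In the low polysomes they were 33.7 ± 3.10 and 31.0 ± 2.23 CPM, with a difference of −0.12 (95% interval −0.44 to 0.20). The high polysome level, by contrast, was 41.7, 44.0 and 38.9 CPM in the wild-type gradients. In the knockout it averaged 13.1 CPM, and no knockout library came near the wild-type range. The high polysome level fell by 1.66 (SE 0.19, adjusted p = 4.99e-10) and the translation level by 1.62 (SE 0.28, adjusted p = 2.69e-05), 3.08-fold. The wild-type ratios of high polysome to monosome were 0.81, 0.53 and 0.64, and the knockout ratios were −1.53, −0.52 and −0.87, so every gradient lay above 0 in one genotype and below 0 in the other.

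The kinase Ulk1 (ENSMUSG00000029512, chr5:110784488-110810097, minus strand), which phosphorylates other initiation factors, had a higher ratio in the knockout that did not reach 2-fold. The log2 ratio of high polysome to monosome was 0.41, 0.37 and 0.30 in wild-type and 1.19, 0.86 and 0.94 in Dgcr8 KO gradients, without overlap. The change was 0.64 (SE 0.20, adjusted p = 0.0118). The monosome level was 351 ± 12.2 CPM in wild-type and 294 ± 14.2 CPM in knockout cells, and the high polysome level 453 ± 29.1 and 593 ± 95.9 CPM. The knockout libraries lay below the wild-type libraries in the first fraction and above them in the second. Neither difference was called, at −0.26 (SE 0.14, adjusted p = 0.158) and 0.38 (SE 0.13, adjusted p = 0.013). Ulk1 carries the seed match shown above.

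Its paralog Ulk2 (ENSMUSG00000004798, chr11:61775649-61855073, minus strand) was covered by only 7 to 44 reads per library. Its change in translation level was −0.75 (SE 0.49, adjusted p = 0.278), with an interval from −1.75 to 0.25. The knockout ratios, −0.64, −0.78 and −0.62, all lay below the wild-type ratios of −0.33, 0.35 and 0.04. The high polysome level averaged 7.57 ± 2.19 CPM in wild-type and 4.19 ± 0.764 CPM in knockout cells, a log2 difference of −0.80 (SE 0.32, adjusted p = 0.0319) below the fold threshold.

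Atg13 (ENSMUSG00000027244, chr2:91674618-91710576, minus strand), the regulatory subunit that ULK kinases bind, had its highest level in the wild-type high polysomes. There it was at 58.9, 64.5 and 64.6 CPM in wild-type and 37.0, 49.4 and 47.8 CPM in knockout cells, and the genotypes did not overlap. The log2 difference was −0.49 (SE 0.15, adjusted p = 0.00439). In the monosomes the knockout libraries were the higher ones, at 53.4, 42.3 and 61.9 CPM against 38.8, 40.7 and 39.8 CPM. The change in translation level was −0.86 (SE 0.24, adjusted p = 0.00535), below the fold threshold. It passed without KO replicate 2 (−1.09, adjusted p = 0.00105) and with total counts (−1.19, adjusted p = 0.000131).

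Becn1 (ENSMUSG00000035086, chr11:101285952-101302286, minus strand) encodes Beclin 1, the scaffold of the class III phosphoinositide 3-kinase complex. Among the 8 tested members it alone was called in wild-type cells for its own translation level, beside 30.1% of all genes, 19.3% in that direction. The wild-type log2 ratios were −1.61, −2.04 and −1.49, and the knockout ratios −1.78, −1.90 and −1.55, which overlap. The fitted level was −1.72 (SE 0.14, adjusted p = 1.78e-13) in wild-type and −1.76 (SE 0.14, adjusted p = 2.18e-14) in knockout cells. The change was −0.04 (SE 0.20, adjusted p = 0.914), with a 95% interval from −0.44 to 0.36. In the low polysomes Becn1 was at 179, 190 and 219 CPM against 140, 128 and 118 CPM, a log2 difference of −0.61 (SE 0.13, adjusted p = 0.000127) that did not reach 2-fold. Becn1 also carries a seed match.

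**Figure D2:**
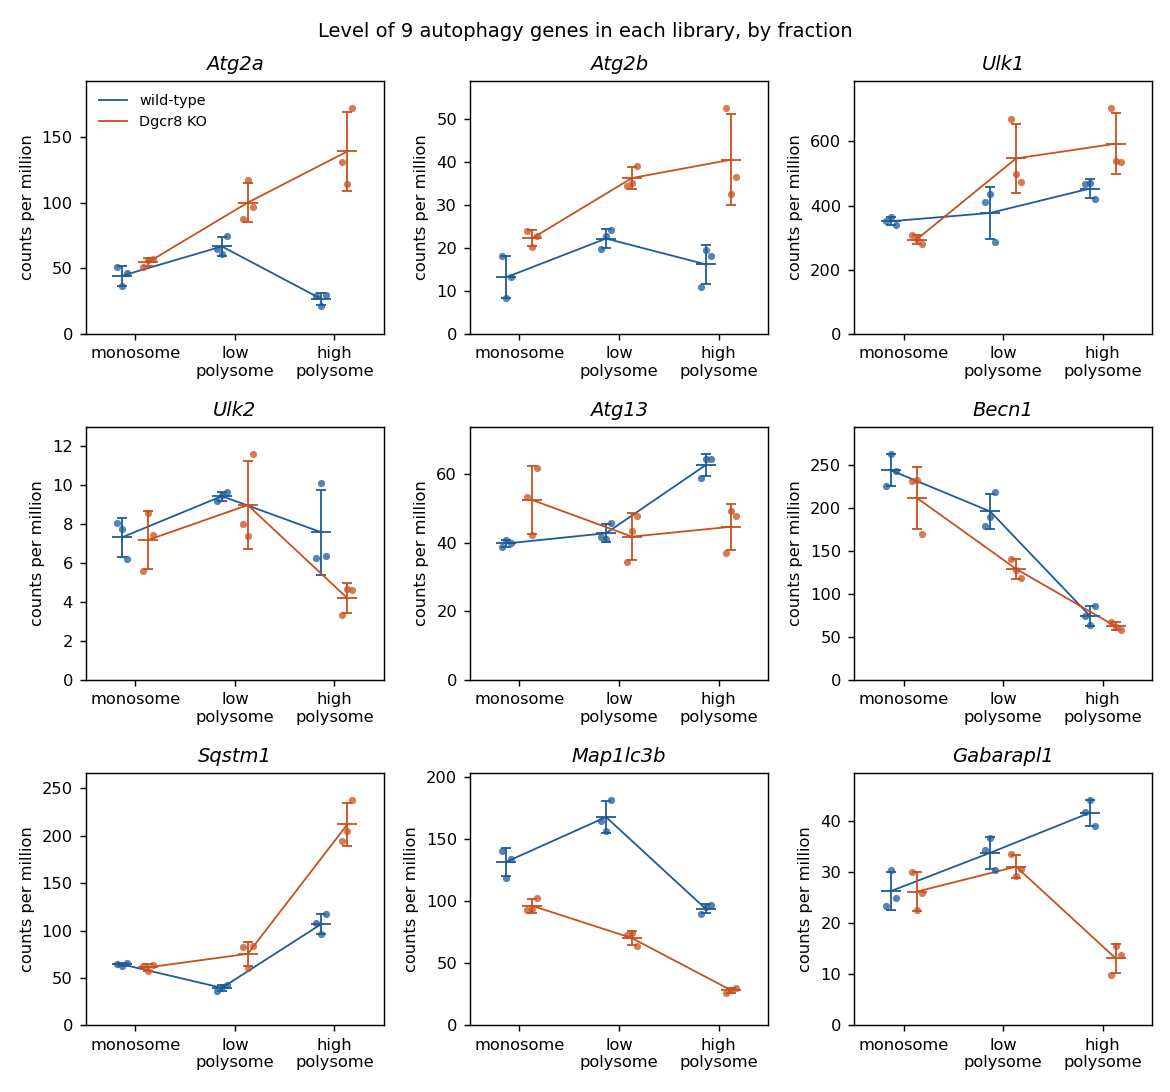
Level of each of the 9 measured autophagy genes (y axis, CPM, from 0) in the monosome, low polysome and high polysome libraries (x axis). Points are single libraries, cross bars and whiskers the mean ± SD of 3 gradients, blue is wild-type and orange Dgcr8 KO. The Atg2a mean is higher in the high polysomes than in the monosomes only in the knockout. Map1lc3b lies lower in every knockout fraction, and the Gabarapl1 libraries of the genotypes overlap except in the high polysomes.

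Fraction by fraction, fewest members were called in the monosomes. None of the 8 tested was called there by limma, edgeR or DESeq2, beside 18.1% of all genes in limma, and 2 of the 8 had an unadjusted p under 0.05 in limma. In the low polysomes 1 of 9 was called (Map1lc3b, lower), beside 25.0% of all genes, 13.6% in that direction. In the high polysomes 3 of 8 were called (Atg2b higher, Map1lc3b and Gabarapl1 lower), beside 33.1%, of which 15.1% were higher and 17.9% lower. The share in the high polysomes is thus close to the background. With adjusted p alone, 2 of 8 passed in the monosomes (37.3% of all genes), 6 of 9 in the low polysomes (52.3%) and 7 of 8 in the high polysomes (60.7%). Within wild-type cells 1 of 8 had a called translation level, Becn1, and 6 of 8 passed on adjusted p alone (54.0%). Within the knockout, 3 of 8 were called (Sqstm1 high at 1.79, Becn1 low at −1.76 and Map1lc3b low at −1.77), beside 43.0% of all genes, 17.5% high and 25.5% low, and 7 of 8 passed on adjusted p alone (67.7%). In the ratios of high polysome to monosome gradient by gradient, the knockout lay wholly above wild-type for 2 of 8 members (Ulk1 and Sqstm1), beside 20.3% of all genes. It lay wholly below for 4 of 8 (Ulk2, Atg13, Map1lc3b and Gabarapl1), beside 21.4%.

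The members also differ in coding length, a feature that the choice of the set did not use. Over the protein-coding genes tested, the median change in translation level ran from −0.94 in the decile with the shortest coding sequences to 0.62 in that with the longest. Map1lc3b (375 nucleotides) and Gabarapl1 (351) were in the shortest decile, where 39.0% of genes were called lower and 0.34% higher. Their changes were at percentiles 30.8 and 15.3 of that decile. Atg2a (5742) and Atg2b (6225) were in the longest decile, where 18.4% of genes were called higher, at percentiles 98.8 and 40.1. Sqstm1 (1326) and Becn1 (1344) shared a decile with a median of −0.04. Becn1 was at percentile 50 of it and Sqstm1 at 94.1, so the called rise of Sqstm1 was large for its length. Ulk1 (3153) was at percentile 59.2 of the ninth decile, while Ulk2 (3111) was at 4.34 of the same decile and Atg13 (1437) at 9.01 of its own. The place of Atg2a rests on the value that chose the set. These positions are a description across genes, which are not independent replicates.

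**Figure D3:**
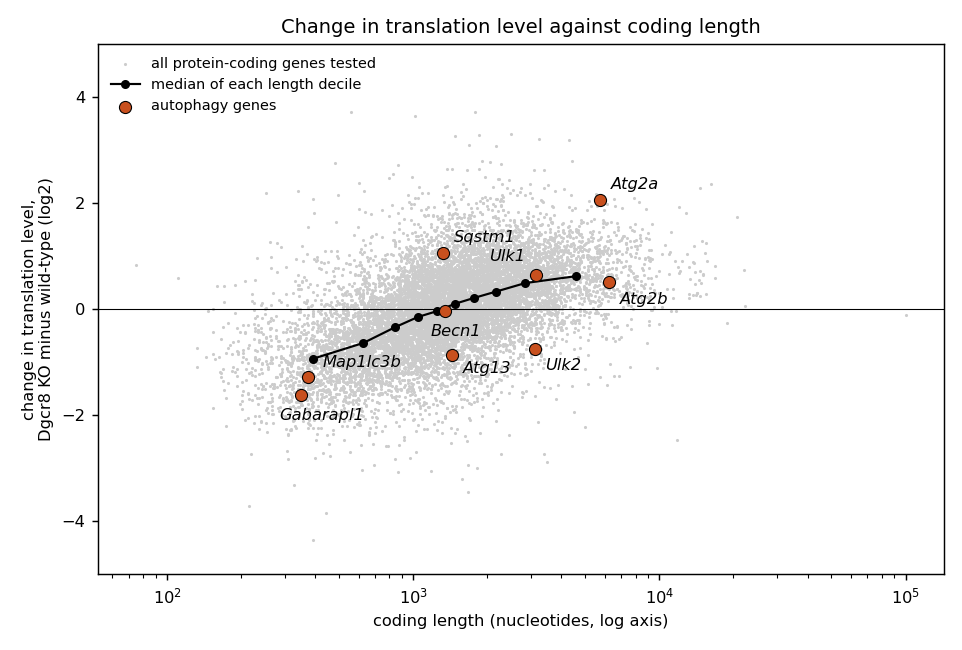
Change in translation level (y axis, log2, Dgcr8 KO minus wild-type) against coding length (x axis, nucleotides, log axis) for 11763 protein-coding genes (grey), the median of each length decile (black) and the 9 autophagy genes (orange). The decile medians run from −0.94 to 0.62. Map1lc3b and Gabarapl1 lie with the short genes, and Sqstm1, Atg13, Ulk2 and Atg2a, the gene that chose the set, lie away from the line.

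The other genes of the pathway, 83 tested of 84 listed, showed 8 called higher and 9 called lower in translation level, beside 6.29% and 8.81% of all genes, with a median change of 0.02 beside 0.01. With total counts in place of TMM the split became 2 higher and 21 lower. Only 4 were called higher without WT replicate 2, and 16 were called lower without KO replicate 3. All 3 ATG8 genes outside the set had negative changes, as did both within it. Map1lc3a was at −1.34 (SE 0.20, adjusted p = 2.88e-06), Gabarapl2 at −1.58 (SE 0.18, adjusted p = 2.04e-08) and Gabarap at −0.94 (SE 0.19, adjusted p = 0.000155), so 4 of the 5 family members were called lower and Gabarap missed the fold threshold. The 5 signs were negative under every alternative run. The coding sequences of the family are 351 to 375 nucleotides long, all in the shortest decile, and Gabarap stood at percentile 50.1 of it.

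The next list covers genes linked to the joining of ATG8 proteins to lipid (ATG8 conjugation). It gave 2 genes called lower of 11, beside 8.81% of all genes, and a median of −0.95. The number called lower was 4 in edgeR, 3 in DESeq2, 6 with total counts, 1 with DESeq2 size factors and, with 1 gradient left out, between 2 (without KO replicate 1) and 5 (without WT replicate 2). They were Atg5 at −1.92 (SE 0.25, adjusted p = 1.77e-07) and Atg12 at −1.01 (SE 0.22, adjusted p = 0.000401), whose products form 1 conjugate. Atg5 was at 66.1 CPM in the wild-type and 28.1 CPM in the knockout high polysomes. The Atg12 call was lost without WT replicate 2 (−0.76) and without KO replicate 1 (−0.92), and it missed the fold threshold with the gradient as a block (−0.99).

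In the phosphoinositide 3-kinase list Pik3r4, the kinase-like subunit that works with Becn1, rose by 1.62 (SE 0.24, adjusted p = 1.97e-06), the only call among 7. Of all genes 6.29% were called higher. The high polysome level of Pik3r4 was 36.7 CPM in wild-type and 111 CPM in knockout cells. Neither of the 2 other ULK complex genes was called, the larger change being −0.47 for Atg101, and 1 had an unadjusted p under 0.05. No gene was called among 7 others of lipid supply, where Wdr45b had the largest change, −0.84 (SE 0.18, adjusted p = 0.00052), and 3 had an unadjusted p under 0.05. Neither edgeR nor DESeq2 called any of these ULK complex and lipid supply genes, but among the 7 of lipid supply 2 were called lower with total counts and 1 without KO replicate 3.

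Of 11 further cargo receptors, the very long Wdfy3, a scaffold for protein aggregates, was called higher (1.21, SE 0.28, adjusted p = 0.001), and the mitochondrial receptors Bnip3l (−1.23, SE 0.42, adjusted p = 0.0232) and Fundc1 (−1.78, SE 0.33, adjusted p = 6.06e-05) were called lower. Over all genes 6.29% were called higher and 8.81% lower. The coding sequences of Bnip3l (654 nucleotides) and Fundc1 (465) are short. Fundc1 falls in the shortest length decile, where 39.0% of genes were called lower. Bnip3l lost its call without WT replicate 1 or 2 and without KO replicate 1 or 2. The high polysome level of Bnip3l hardly differed, at 21.4 CPM in wild-type and 18.8 CPM in knockout cells (log2 difference −0.18, adjusted p = 0.455 in limma). Its monosome level was called higher in the knockout (1.05, adjusted p = 0.0209), on 6 to 15 reads per wild-type library. For Fundc1 the high polysome level was called lower (−1.08). Sqstm1 and Wdfy3 were the receptors called higher in translation level, and Wdfy3 fell below the threshold with total counts (0.88). Of 13 genes for fusion with lysosomes, the HOPS subunits Vps11 (1.08, adjusted p = 0.0479) and Vps18 (1.64, adjusted p = 0.0103) were called higher. Vps11 lost its call without WT replicate 1 or 3, without KO replicate 1 or 3 and with total counts (0.76), and Vps18 lost it without WT replicate 2 (1.55) or 3 (1.26).

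Upstream of the ULK complex, mTORC1 holds autophagy down when nutrients are plentiful. Its substrate and inhibitor Akt1s1 (−1.57, SE 0.34, adjusted p = 0.000539) and its activator Rheb (−1.24, SE 0.26, adjusted p = 0.000389) were called lower, 2 of 10. Over all genes 8.81% were called lower. Rheb was no longer called without WT replicate 1. The kinase gene Mtor was at 0.06 (SE 0.36). Of 3 transcription factor genes of the TFEB family, Mitf was called lower (−1.05, SE 0.29, adjusted p = 0.005), a call lost without WT replicate 3 and without KO replicate 1. Tfeb was at 0.60 (SE 0.19, adjusted p = 0.0163).

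Lysosomal proteins digest what autophagosomes deliver. Of 16, 4 were called higher in translation level, beside 6.29% of all genes, none lower, and the median change was 0.70, or 0.38 with total counts, where none was called. They were the membrane protein Lamp2 (1.23, adjusted p = 7.63e-06), the protease Ctsa (1.17, adjusted p = 1.88e-06), the cholesterol transporter Npc1 (1.15, adjusted p = 0.000546) and the cation channel Mcoln1 (1.05, adjusted p = 0.0184). Without WT replicate 2 the count was 1, as Ctsa and Npc1 also lost their calls there, and Mcoln1 did so without WT replicate 2 or 3, without KO replicate 3, in edgeR and with the gradient as a block (0.98). In the high polysomes 8 of the 16 were called higher, beside 15.1% of all genes. Lamp2 had the largest difference among them, at 199 CPM in wild-type and 2040 CPM in knockout cells, a log2 difference of 3.36. Lamp2 was also higher in the monosomes, at 126 and 558 CPM, so its level and its ratio both differed.

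**Figure D4:**
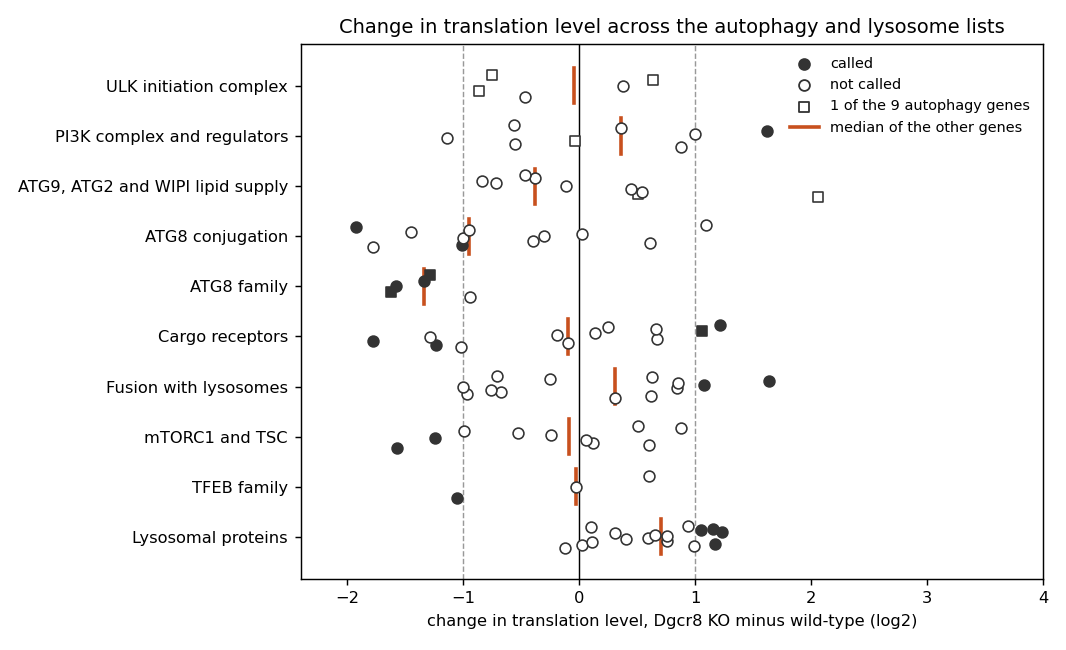
Change in translation level (x axis, log2, Dgcr8 KO minus wild-type) of each tested gene in 10 autophagy and lysosome lists (y axis). Filled symbols were called, open symbols were not or, for Atg2a, were not tested, squares are the 9 autophagy genes, and orange bars are medians of the other genes in the list. The median is −1.34 in the ATG8 family, −0.95 in ATG8 conjugation and 0.70 in the lysosomal proteins.

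Likeness to Atg2a over the 18 libraries was measured by Pearson's r of log2 CPM. It covered 7450 genes above a minimum mean count, which left out Ulk2. Among the genes most alike were Fam120a (0.927), Setd1a (0.921), Cacna1a (0.905) and Nav1 (0.904). All had a higher mean in the knockout than in the wild-type high polysomes, as in Cacna1a at 226 and 45.7 CPM. That difference is part of the contrast that chose Atg2a. Of the other members compared, Atg2b was nearest with r = 0.809, at rank 107. Gabarapl1 (−0.713) and Map1lc3b (−0.609) ran opposite to Atg2a. The points are 18 libraries in 6 groups that share fraction and genotype, and they include the values that chose Atg2a. The correlations are therefore descriptive.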

How the data were processed

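Fractions were collected from 10 to 50% sucrose gradients after 2 min of cycloheximide and sequenced with QuantSeq 3′ FWD libraries. The deposited values are raw read counts per gene, which the authors made, per the submitters' processing notes, with cutadapt 1.14, STAR 2.5.3a (mm10) and featureCounts 1.5.3. Starting from these counts, 92 spike-in rows were left out and genes with at least 3 CPM in 3 libraries were kept. limma-voom 3.58.1 with TMM factors (edgeR 4.0.16, R 4.3.3) was fitted to all 18 libraries with 6 group means, two-sided, with Benjamini-Hochberg adjustment over 12851 genes. The change in translation level is the interaction of genotype and fraction. Alternatives were edgeR's quasi-likelihood test, DESeq2 1.42.0, other scalings and filters, a replicate block and leaving out each gradient. The pipeline was tested on simulated data. Gene structures and seed matches come from GENCODE transcripts (GRCm38), taking 1 transcript per gene. CPM are shares of a library: total RNA per fraction was not used, so a level is relative to the other messages of that fraction. Library totals set the counting precision. Intervals come from limma's fit to all 18 libraries, not from the spread of a gene's own gradients alone. They cover no variation beyond these gradients, whose separate cultures the sources do not describe. Replicate libraries differed by more than counting noise (chi-square of 1.92 to 7.48 per gene). The members, the pathway lists and the rule for naming genes (every member, each listed gene called, the largest change in each list, and the genes most like Atg2a, of which 1 is not reported here) were chosen with earlier results of these data known.

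Fractions of 1 gradient share a lysate, but their deviations from the group means were hardly correlated (r of 0.033 to 0.107 between monosomes and high polysomes), and equal replicate numbers of wild-type and Dgcr8 KO gave r of 0 to 0.102.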

Additional observations from a re-analysis of the deposited data

Results flagged for a closer look

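Differences between the genotypes in the contrast of high polysomes against monosomes were picked out for the members and listed pathway genes below. For Atg2a every wild-type gradient lay below 0 and every Dgcr8 KO gradient above 0 on the log2 scale, with group means 2.05 apart, and the difference was not tested because these values chose the gene. The other differences passed the test of the interaction itself in limma. Among the members they were 1.06 for Sqstm1, −1.29 for Map1lc3b and −1.62 for Gabarapl1. In the ATG8 family and its conjugation they were −1.34 for Map1lc3a, −1.58 for Gabarapl2, −1.92 for Atg5 and −1.01 for Atg12. Among receptors and fusion factors they were −1.23 for Bnip3l, −1.78 for Fundc1, 1.21 for Wdfy3, 1.08 for Vps11 and 1.64 for Vps18. Among regulators they were 1.62 for Pik3r4, −1.57 for Akt1s1, −1.24 for Rheb and −1.05 for Mitf. Among lysosomal proteins they were 1.23 for Lamp2, 1.17 for Ctsa, 1.15 for Npc1 and 1.05 for Mcoln1. Many of these signs ran with coding length. Atg12 (423 nucleotides), Fundc1 (465), Rheb (552), Bnip3l (654), Akt1s1 (771) and Atg5 (825) were lower. Wdfy3 (10524), Pik3r4 (4074), Npc1 (3831), Vps18 (2919) and Vps11 (2823) were higher. At middle lengths Lamp2 (1245), Ctsa (1476) and Mcoln1 (1740) were higher and Mitf (1578) was lower. The part of length in these values was not tested, nor was any other explanation.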

How the results depend on the processing

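Over 54 results for members (9 genes in 6 comparisons), 837 values under alternatives were computed. None of the called results changed sign, 791 values kept their side of the threshold, 43 passed it where the reported value had not, 2 no longer passed it (Sqstm1, given above) and 1 untested value moved, that of Atg2a to 1.73 with total counts. Dropping the fold threshold was among these alternatives, and it could only add calls. Signs differed under an alternative for 9 results that were not called. Without the fold threshold the number of members called rose to 5 for the change in translation level, 2 in monosomes, 6 in low polysomes, 7 in high polysomes, 6 for the wild-type and 7 for the Dgcr8 KO translation level, because Ulk1, Atg13 and others lie between 1-fold and 2-fold. Leaving out 1 gradient at a time gave 2 to 4, 0 to 1, 1 to 2, 3 to 4, 1 to 1 and 3 to 5 calls in the same order. The second call in low polysomes was Sqstm1 without KO replicate 2 (1.06). With total counts the knockout translation level had 5 calls, and it had 5 without KO replicate 2 or 3, since Ulk1 and Gabarapl1 (−0.98) sit at the threshold. With a replicate block on the gradient number the counts were 3, 0, 1, 3, 1 and 3, and with a block on the gradient itself 3, 1 and 3 where that could be fitted, so the block changed no count of members called. Ulk2, at 7 to 44 reads per library, had an imprecise change in translation level (SE 0.49, 95% interval −1.75 to 0.25). It dropped out of the filter at 10 CPM.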
